A study of Mus musculus with 34 samples.

Results

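The mu class of glutathione S-transferases comprised 7 genes on the liver arrays, Gstm1 to Gstm7, read by 8 of the 41174 probes. Gstm1 was read by 2 probes, of which the brighter stands for the gene, and the other 6 genes by 1 probe each. A probe was taken as a member when its RefSeq accession belonged to a Gstm gene. The family was chosen by measured values of these same livers, in which Gstm1 and Gstm3 were higher in pups given goitrogens. Differences of members between goitrogen-treated and other pups are therefore given below as descriptions without p-values. Counts of members past the threshold in these comparisons only restate that choice. Responses to the large hormone injection, differences between the sexes and the variation among pups of a group were not used in that choice and were tested. The tests of the large injection compare with the same control pups as the choice. Those of whether goitrogen responses differed between the sexes use the same arrays as the choice. Neither kind of test is independent of the choice. Each of the 8 probes carried the accession of 1 member only. The probe letters were not used here, so that hybridization of a paralog's RNA to a member's probe was not tested.

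Liver RNA of 34 C57BL/6 pups, 17 males and 17 females, was collected on postnatal day (PND) 15, and every liver had an array of its own, on which its RNA was hybridized together with a universal mouse reference RNA. Control pups (4 males, 4 females) had no goitrogen and received a saline injection. Hyper pups (5 males, 5 females) had no goitrogen and received the larger dose of the thyroid hormones T4 and T3. Hypo pups (4 males, 5 females) were exposed for 3 days to 2 goitrogens in the water that their dams drank, and received saline. The goitrogens were methimazole, an inhibitor of thyroid peroxidase, and perchlorate, an inhibitor of iodide uptake by the thyroid. Hypo+ pups (4 males, 3 females) had the same goitrogens and then a smaller dose of T4 and T3. By the study's account, they were selected by serum T4 close to or a little above that of controls. Pups of this treatment with T4 like that of hyper pups were set apart and had no array. The study also removed 2 arrays of each sex as outliers, which left 17 per sex. Injections preceded collection by 4 h. The goitrogens reached the pups through the dams. Per the methods of the study, pups of 1 sex were independent, while males and females could be related through the dam, and the sexes were therefore fitted separately. Values are log2 ratios of pup (Cy5) to reference (Cy3) after loess normalization within each array, and a difference of 1 between groups is a 2-fold change. All 8 member probes were well above background in both channels on all 34 arrays and none was saturated or marked as an outlier, so that no member was lost to a filter. In whole liver, fewer cells of a type and less RNA per cell cannot be told apart.

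Glutathione S-transferases join the tripeptide glutathione to electrophilic compounds, which makes them more soluble and ready for export. The mu-class enzymes are soluble dimers, are abundant in hepatocytes, and are encoded by a cluster of neighbouring genes that arose by duplication. Several of them are known to be induced in rodent liver through the transcription factor NRF2, which binds antioxidant response elements, and through the xenobiotic receptors CAR and PXR. Gstm1 is the major mu-class form of mouse liver, whereas Gstm5 is known mainly from brain and testis. The hypo and hypo+ labels were checked with Dio1, the hepatic deiodinase that is induced by thyroid hormone. It was lower in hypo than in control pups by 1.46 (SE 0.20, adjusted p = 0.0124) on the log2 scale in males, and in females by 1.77 (SE 0.27, adjusted p = 0.00921). Hypo+ pups had more Dio1 than hypo pups by 1.52 in males (adjusted p = 0.0015) and 2.02 in females (adjusted p = 0.002). Thrsp, another hormone-induced gene, was lower in hypo pups by 1.55 (SE 0.41) in males and 1.48 (SE 0.31) in females, without passing the threshold (adjusted p = 0.358 and 0.0766). In hyper pups the mean log2 ratio of Dio1 was 6.21 in males and 6.45 in females, beside 5.84 and 6.16 in control pups. That of Thrsp was 3.11 and 3.42, beside 2.37 and 2.14. None of 5 measured thyroid hormone responsive genes, of 6 in the list, was called there, so that no call made here checks the hyper label. The gene without a matched probe was Auts2, which the study reported as higher in hyper pups. The study also measured raised serum T4 in hyper pups. All 4 measured hepatocyte markers, of 6 in the list, were well above background on every array, with group means between 4.36 and 4.80. All measured markers of cholangiocytes (group means -1.73 to -1.36), Kupffer cells (4.24 to 4.51), endothelial cells (2.97 to 3.22) and stellate cells (3.01 to 3.24) were also above background on every array, as were 2 of 5 erythroid markers (1.07 to 1.36). The mean log2 ratio of 6 pancreatic acinar markers, of which Cel and Ctrb1 were well above background on every array, was highest in control males (1.88, with pups from 0.235 to 3.65), was 0.808 in control females (0.182 to 2.51), and was lowest in hypo pups (0.185 in males and 0.159 in females). It was also below control in hyper pups (0.257 and 0.292) and in hypo+ pups (0.268 and 0.610). Its part in the differences between goitrogen-treated and control pups was not tested.

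The 7 genes form a cluster on chromosome 3, in the order Gstm5, Gstm7, Gstm6, Gstm3, Gstm2, Gstm1 and Gstm4, with Gstm5 on the plus strand and the other 6 on the minus strand. Gstm2 therefore lies between the pair that was highest in goitrogen-treated pups. The RefSeq start-site windows of GRCm38.p6, from 250 bases before to 50 bases after a start site, were available for all 7 genes, as 12 windows. The windows below are those of Gstm1 and Gstm3, whose levels differed most between groups, and the windows of Gstm5 and Gstm7, which held a match to the antioxidant response element. They lie at chr3:108017769-108018068 (Gstm1, minus strand), chr3:107969125-107969424 (Gstm3, minus strand), chr3:107895604-107895903 (Gstm5, plus strand) and chr3:107931565-107931864 (Gstm7, minus strand). Each is written 5′ to 3′ on the strand of its gene, with motif matches in capitals.
Gstm1: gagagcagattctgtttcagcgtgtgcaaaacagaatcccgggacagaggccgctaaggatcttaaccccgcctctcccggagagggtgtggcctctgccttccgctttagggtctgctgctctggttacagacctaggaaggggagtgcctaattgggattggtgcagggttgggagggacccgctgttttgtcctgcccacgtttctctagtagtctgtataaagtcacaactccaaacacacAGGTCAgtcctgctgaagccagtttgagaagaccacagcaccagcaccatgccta
Gstm3: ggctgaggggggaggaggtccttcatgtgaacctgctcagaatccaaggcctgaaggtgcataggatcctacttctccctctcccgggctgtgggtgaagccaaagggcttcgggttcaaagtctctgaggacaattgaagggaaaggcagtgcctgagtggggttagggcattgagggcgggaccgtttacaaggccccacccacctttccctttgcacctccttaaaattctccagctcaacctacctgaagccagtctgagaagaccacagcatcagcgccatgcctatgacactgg
Gstm5: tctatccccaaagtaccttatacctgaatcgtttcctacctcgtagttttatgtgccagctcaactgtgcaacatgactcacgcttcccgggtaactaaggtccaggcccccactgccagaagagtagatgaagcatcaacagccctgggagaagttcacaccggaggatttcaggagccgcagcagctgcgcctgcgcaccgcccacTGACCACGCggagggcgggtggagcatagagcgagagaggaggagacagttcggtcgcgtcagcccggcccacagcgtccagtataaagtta
Gstm7: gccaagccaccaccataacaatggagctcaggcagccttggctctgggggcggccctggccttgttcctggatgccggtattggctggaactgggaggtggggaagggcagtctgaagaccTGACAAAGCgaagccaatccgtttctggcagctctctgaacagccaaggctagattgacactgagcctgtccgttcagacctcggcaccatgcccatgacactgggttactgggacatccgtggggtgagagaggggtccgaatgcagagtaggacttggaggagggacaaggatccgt

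Searched on both strands, the antioxidant response element core TGACNNNGC was matched in the windows of Gstm5, starting 42 bases before the start site, and of Gstm7, starting 129 bases before it. These were 2 of 7 genes and 2 of their 12 windows, beside 12.4% of all 32851 windows of this length. The thyroid half-site AGGTCA was matched in Gstm1 alone among the members, starting 5 bases before the start site. This was 1 of 12 windows, beside 16.3% of all windows. A direct repeat of that half-site with a spacer of 4, the DR4 arrangement, was matched in none of the 12 windows and in 0.0152% of all windows. The letters TGAC begin both the first motif and the reverse complement of the half-site, so that matches of these motifs can overlap. Gstm3, whose level differed nearly as much as that of Gstm1, held no match. The longest run of letters shared by windows of different members was tgagaagaccacagca, 16 bases that begin 19 bases after the start site of Gstm1 and are also present in Gstm3. The next longest, 14 bases, was shared by Gstm2 and Gstm3, and the other 19 pairs shared runs of 7 to 13 bases. A match describes the letters of a window, not binding. Only these letters within these windows were searched, so that elements farther from a start site or with other letters were not examined.

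Gstm1 was higher in all 16 goitrogen-treated pups than in any of the 18 others. How many of all probes separate the pups in this way was not counted, here or for the members below. In males, its log2 ratio was 2.27, 2.36, 2.08 and 1.97 in the control pups and 3.32, 4.16, 4.07 and 3.11 in the hypo pups. In hypo+ males it was 3.32, 3.79, 3.66 and 4.02. Every goitrogen-treated male was above every control male, and hypo and hypo+ males overlapped. In females, the control pups had 2.15, 2.41, 1.98 and 2.45, the hypo pups 3.77, 3.69, 3.35, 3.90 and 3.64, and the hypo+ pups 3.41, 3.54 and 3.82. Over both sexes, goitrogen-treated pups spanned 3.11 to 4.16 and the others 1.62 to 2.45. The difference from control was 1.50 (SE 0.22, 2.83-fold) in hypo males and 1.42 (SE 0.12, 2.68-fold) in hypo females. In hypo+ pups it was 1.53 (SE 0.22, 2.89-fold) in males and 1.34 (SE 0.13, 2.54-fold) in females, against the same control arrays. Hypo+ and hypo pups differed by 0.03 (SE 0.22) in males and -0.08 (SE 0.13) in females, less than the spread between pups. Dio1 was higher in the same hypo+ livers. On each of the 4 slides that held both groups, however, the brighter Gstm1 probe was lower in hypo+ pups (-0.83 to -0.15), and with slide as a block in the fit the difference was -0.15 in males and -0.25 in females.

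The dimmer Gstm1 probe likewise separated goitrogen-treated from other pups, with smaller differences. It read 2.61 to 3.24 in the 16 goitrogen-treated pups and 1.37 to 2.10 in the 18 others. Its difference from control was 1.04 (SE 0.15) in hypo males and 0.99 (SE 0.11) in hypo females, and 1.02 (SE 0.15) and 0.95 (SE 0.13) in hypo+ pups. Hypo+ minus hypo was -0.02 in males and -0.04 in females by this probe, and on the 4 slides with both groups it was below 0 on 3 and above 0 on 1 (-0.64 to 0.14).

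Gstm3 also separated every goitrogen-treated pup from every other pup. Its log2 ratio in males was 2.11, 2.14, 2.10 and 2.04 in control, 3.13, 3.65, 3.73 and 2.83 in hypo, and 2.94, 3.47, 3.32 and 3.48 in hypo+ pups. Among females, it was 2.15, 2.22, 1.92 and 2.27 in control, 3.52, 3.11, 3.13, 3.49 and 3.35 in hypo, and 3.10, 3.17 and 3.50 in hypo+ pups. Hypo pups exceeded controls by 1.24 (SE 0.17, 2.36-fold) in males and 1.18 (SE 0.11, 2.26-fold) in females. Hypo+ pups exceeded them by 1.20 (SE 0.17) and 1.11 (SE 0.12), and differed from hypo pups by -0.03 (SE 0.17) and -0.07 (SE 0.12), with -0.71 to 0.06 on the 4 slides that held both. The hypo males with the most Gstm1, numbers 576 and 311, were also the hypo males with the most Gstm3 and Gstm4, as the plot of single pups shows for Gstm1 and Gstm3.

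**Figure D1:**
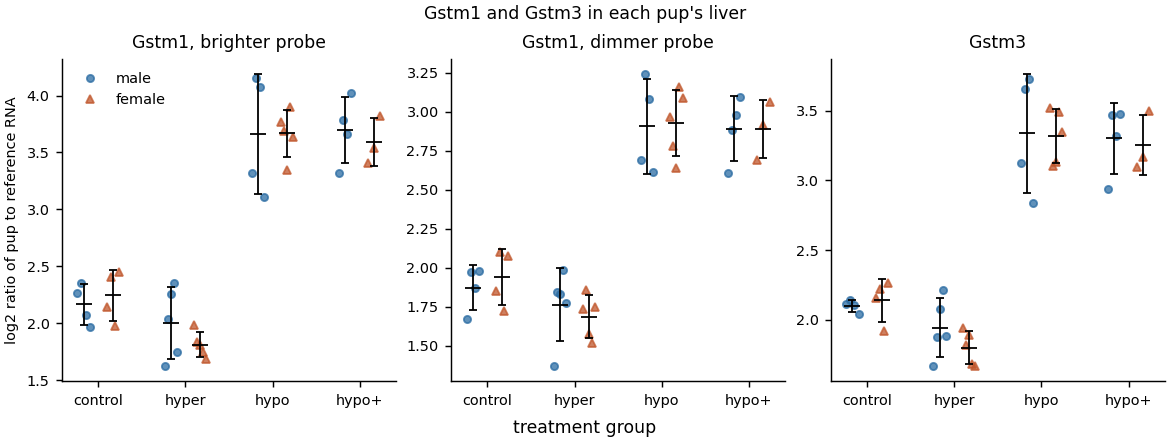
Log2 ratio of pup to reference RNA (vertical axis) for both Gstm1 probes and for Gstm3 in the control, hyper, hypo and hypo+ groups (horizontal axis). Each point is 1 pup (circles, males; triangles, females), and the horizontal mark and bars give the mean ± SD of a group; on all 3 probes the 16 hypo and hypo+ pups lie above the 18 control and hyper pups.

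At the adjusted p threshold of 0.05 over all probes, Gstm1 and Gstm3 were the 2 of 7 members past it in hypo against control, in each sex and by all 3 of their probes, beside 0.0971% of all probes in males and 0.155% in females. The same 2 genes passed in hypo+ against control, beside 0.0267% of all probes in males and 0.0219% in females. In hypo+ against hypo no member passed, beside 0.369% of all probes in males and 0.556% in females. These counts restate the choice of the family and support nothing by themselves. In hypo males the count was 0 after median centring of the arrays, when only the compared groups were fitted, or without hypo male 311. In hypo+ pups it was 0 in both sexes after median centring and with slide as a fixed block, and in males also without any 1 of the 4 control males or without hypo+ male 454, 761 or 363. In hypo males the difference of Gstm1 itself stayed between 1.06 and 1.68 over all settings run. On the 7 slides that held both hypo and control pups, hypo exceeded control on each for Gstm1 (by 1.05 to 2.00), for Gstm3 (by 0.88 to 1.63), for Gstm4 (by 0.05 to 0.75) and for Gstm6 (by 0.03 to 0.88), whereas it did so on 6 for Gstm2 and Gstm5 and on 5 for Gstm7. On the 5 slides that held both hypo+ and control pups, hypo+ was higher on each for Gstm1 (0.96 to 1.71) and Gstm3 (0.80 to 1.37), on 4 for Gstm5, on 3 for Gstm2, Gstm4 and Gstm6, and on 1 for Gstm7.

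Among the other paralogs, Gstm4, Gstm2 and Gstm6 had intermediate differences. Gstm4 read 1.66, 1.96, 1.57 and 1.79 in control males, 1.98, 2.41, 2.33 and 1.93 in hypo males, and 1.73, 1.66, 1.88 and 1.89 in hypo+ males. All 4 hypo+ males were below all 4 hypo males, and 1 control male lay within the range of the hypo males. The female values were 1.49, 1.94, 1.49 and 1.62 in control, 2.19, 1.98, 2.10, 2.24 and 2.23 in hypo, and 1.91, 1.87 and 1.92 in hypo+ pups. Hypo females lay above all control females, and hypo+ females lay below all hypo females. The share of all probes whose groups separate like this was not counted, so that these separations are a description. Gstm4 was 0.42 (SE 0.12) higher in hypo than in control males and 0.51 (SE 0.11) in females, and hypo+ minus hypo was -0.37 (SE 0.12) and -0.25 (SE 0.12). It was below 0 on each of the 4 slides that held both.

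Gstm2 differed between hypo and control by 0.60 (SE 0.20) in males and 0.36 (SE 0.16) in females, and between hypo+ and control by 0.21 (SE 0.20) and 0.26 (SE 0.18). Its values in hypo pups, 0.33 to 0.98 in males and 0.47 to 1.06 in females, overlapped with those of control pups, -0.22 to 0.51 and -0.16 to 0.66. Single pups moved these values by more than 1.5 times. Without hypo+ male 454 the hypo+ difference of Gstm2 in males was 0.08, and without control male 391 it was 0.07. Without control female 394 it was 0.09 in hypo+ females and 0.19 in hypo females. Gstm6 differed between hypo and control by 0.54 (SE 0.18) in males and 0.42 (SE 0.14) in females, and between hypo+ and control by 0.36 (SE 0.18) and 0.12 (SE 0.16). The ranges of its groups also overlapped, with 2.10 to 2.76 in hypo and 1.85 to 2.31 in control males.

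Gstm5 and Gstm7 differed least. For Gstm5, hypo minus control was 0.12 (SE 0.08) in males and 0.15 (SE 0.07) in females, and hypo+ minus control 0.08 (SE 0.08) and 0.01 (SE 0.08). For Gstm7, hypo minus control was 0.20 (SE 0.17) in males and 0.16 (SE 0.17) in females, and hypo+ minus control 0.05 (SE 0.17) and 0.07 (SE 0.19). The hypo difference of Gstm7 was 0.32 in females without control female 831 and 0.08 in males without hypo male 576. Of the 16 goitrogen-treated pups, 8 exceeded every other pup for Gstm4, 7 for Gstm2, 5 for Gstm6, 3 for Gstm5 and 1 for Gstm7. Over the 7 genes, the hypo difference had a median of 0.54 (males) and 0.42 (females), with 7 of 7 above 0 in each sex, beside a median of 0.00 over all probes in each sex. For hypo+ against control it was 0.21 (males) and 0.26 (females), again with 7 of 7 above 0 in the fit, beside -0.01 and 0.00 over all probes, although Gstm7 was below control on 4 of 5 slides (median -0.15). For hypo+ against hypo it was -0.15 and -0.10, beside -0.01 over all probes in each sex.

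**Figure D2:**
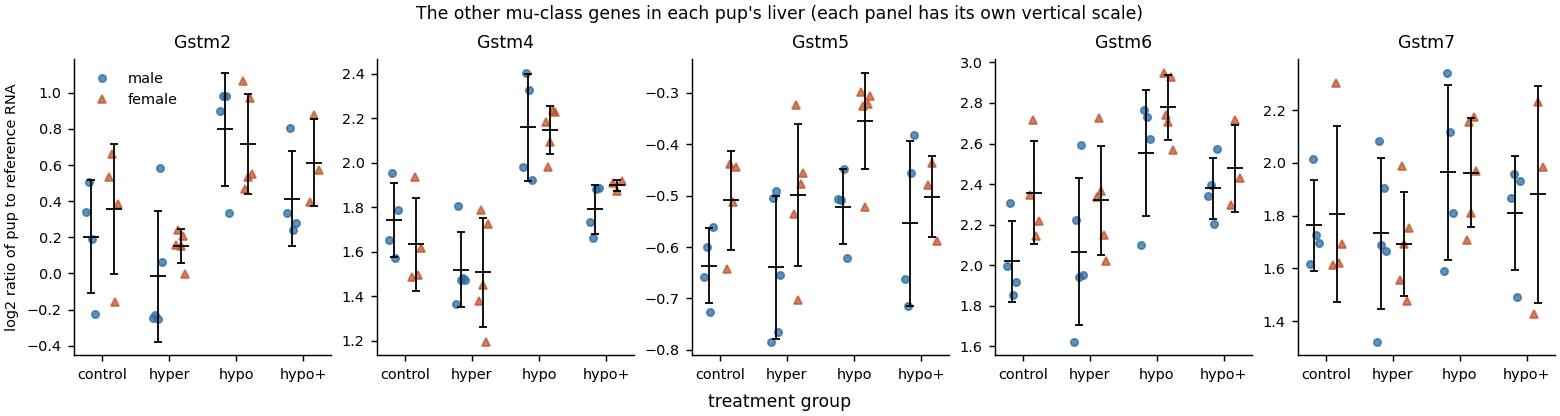
Log2 ratio of pup to reference RNA (vertical axis, with a scale of its own in each panel) for Gstm2, Gstm4, Gstm5, Gstm6 and Gstm7 by treatment group (horizontal axis). Points are single pups (circles, males; triangles, females) with the mean ± SD of each group; hypo pups lie highest on average for each gene, and hypo+ pups lie below hypo pups of their sex for Gstm4.

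The hyper group asks whether an excess of hormone moved the family in pups without goitrogen. No member passed the threshold in either sex (limma, Benjamini-Hochberg over all probes), where 0.0753% of all probes were called in males and 0.158% in females. Gstm1 was lowest in hyper females, with 1.98, 1.83, 1.81, 1.74 and 1.69, so that 1 of 5 pups reached the control range of 1.98 to 2.45. The difference from control females was -0.43 (SE 0.12, 1.35-fold lower, unadjusted p = 0.0018, adjusted p = 0.28). The dimmer probe gave -0.25 (SE 0.11, adjusted p = 0.782), and Gstm3 gave -0.34 (SE 0.11, unadjusted p = 0.0053, adjusted p = 0.447). These 3 probes of 2 genes were the member probes with an unadjusted p below 0.05 in females, where 6.16% of all probes had one.

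In hyper males Gstm1 was 1.62, 2.03, 2.26, 2.35 and 1.75, which overlapped with control males, and the difference was -0.16 (SE 0.21). No member probe had an unadjusted p below 0.05 in males, where 2.97% of all probes had one. Gstm3 differed by -0.16 (SE 0.16) and Gstm4 by -0.22 (SE 0.11) in males. Gstm2 differed by -0.22 (SE 0.19) in males and -0.20 (SE 0.16) in females, and Gstm5, Gstm6 and Gstm7 by -0.11 to 0.05. The median of the 7 genes was -0.16 in males and -0.13 in females, beside 0.00 and -0.01 over all probes. On the 8 slides with both hyper and control pups, hyper was below control on 8 for Gstm3 (-0.59 to -0.02), on 8 for the dimmer Gstm1 probe (-0.33 to -0.04), and on 7 for the brighter one (-0.77 to 0.18). For Gstm5, Gstm6 and Gstm7 each difference was smaller than its standard error.

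Whether the paralogs differed in their response to the large injection was tested on the difference between each paralog and Gstm1 within the same array. None of 12 tests passed after Benjamini-Hochberg adjustment (exact permutation test, two-sided, 5 hyper against 4 control pups of a sex). The difference that came nearest was that of Gstm6 in females, where hyper minus control was 0.40 (SE 0.16) higher for Gstm6 than for Gstm1 (exact p = 0.0159, the smallest this design can give, adjusted p = 0.19). Gstm5 in females exceeded Gstm1 by 0.45 (SE 0.12, exact p = 0.0476, adjusted p = 0.286). Gstm3 and Gstm1 differed by 0.01 (SE 0.09) in males and 0.09 (SE 0.05) in females (exact permutation test, adjusted p = 0.841 and 0.299). A single test at the smallest p has an adjusted p of 0.19 among 12, so that this design had little room to pass the threshold.

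**Figure D3:**
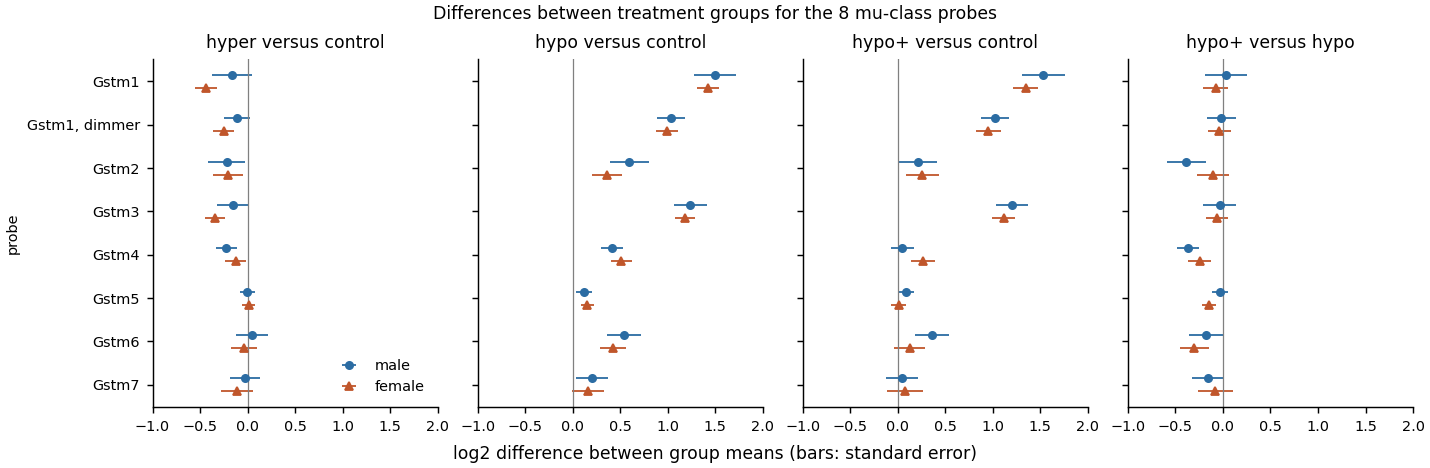
Difference between group means in log2 units (horizontal axis, bars give the standard error of the fit) for the 8 mu-class probes (vertical axis) in the 4 treatment comparisons, with males as circles and females as triangles. Gstm1 and Gstm3 lie between 0.95 and 1.53 in both comparisons of goitrogen-treated pups with control and near 0 in hypo+ versus hypo, whereas Gstm2 and Gstm4 to Gstm7 lie at or below 0.60 in each panel.

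Males and females were compared in 1 fit of all 34 arrays. In this fit, males and females that may share a dam count as independent pups. No member had a response that differed between the sexes past the threshold, for hyper, hypo or hypo+ against control, and neither did any other probe (0% of all probes in each of these 3 comparisons). No member probe had an unadjusted p below 0.05 in them, against 1.02% to 1.33% of all probes. The largest of these differences for Gstm1 was in hyper pups, where the response of females was 0.27 lower than that of males (SE 0.25). In the level itself, averaged over the 4 treatments, no member was called between the sexes, beside 0.0996% of all probes. Gstm6 was higher in females by 0.23 (SE 0.08, unadjusted p = 0.0107, adjusted p = 0.403) and Gstm5 by 0.12 (SE 0.04, unadjusted p = 0.0043, adjusted p = 0.357), and 9.37% of all probes had an unadjusted p below 0.05. Nearly every slide held pups of 1 sex, so that sex and slide cannot be told apart here.

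The spread between pups of 1 group was then compared among members. Each value was taken as the deviation from the mean of its sex and treatment, and 21 pairs of genes were tested over 34 pups with 100000 permutations within groups. Males and females that may share a dam count as independent pups in these permutations. Gstm1 and Gstm3 varied together, with Pearson's r = 0.92 and Spearman's rho = 0.90 (permutation p = 1e-05 for each, the smallest these permutations can give, adjusted p = 0.00021). Without the 2 pups farthest from the median of Gstm1, r was 0.89. It was 0.94 in males and 0.84 in females alone, 0.95 for deviations from both group and slide means, and 0.64 in the Cy5 channel alone. Pups of a treatment whose animal numbers share their first digits, which may mark a litter, were also averaged to 20 means. For Gstm1 and Gstm3, r over these means was 0.93 (rho = 0.90, permutation p = 1e-05 for each, adjusted p = 0.00021). The brighter and the dimmer probe of Gstm1 itself correlated with r = 0.81 over the same deviations, and the dimmer probe correlated with Gstm3 with r = 0.81. Whether RNA of 1 of these genes also bound the probe of the other was not tested. Over 22190 probes of genes outside the family that were well above background on every array, the median r with Gstm1 was 0.01.

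Of the 21 pairs, 12 passed an adjusted p of 0.05 by r and 13 by rho over single pups, 8 passed by r over the 20 means, and 4 passed in males alone and 2 in females alone. Over single pups, 20 had an r above 0, with a median of 0.48. The share of pairs of other probes that pass the same test was not counted, so that these counts have no background. Gstm6 and Gstm7, which are neighbours in the cluster, had r = 0.73 (rho = 0.69, permutation p = 4e-05 and 0.00012, adjusted p = 0.00042 and 0.00126). Gstm4 and Gstm7 had r = 0.62 (rho = 0.59, permutation p = 0.00043 and 0.00101, adjusted p = 0.00301 and 0.00501), and Gstm2 and Gstm3 had r = 0.60 (rho = 0.59, permutation p = 0.00067 and 0.00137, adjusted p = 0.00352 and 0.00501). Without the 2 pups farthest from the median, r of these pairs was 0.74, 0.52 and 0.55, and over the 20 means it was 0.66, 0.57 and 0.61. The first 2 pairs depended on the normalization: with median centring r was 0.32 for Gstm6 with Gstm7 and 0.05 for Gstm4 with Gstm7, and with the scanner's own ratio it was 0.15 and 0.37, while Gstm2 and Gstm3 had 0.84 and 0.59. Gstm5 passed with Gstm4 only (r = 0.56, rho = 0.64, permutation p = 0.00163 and 0.00026, adjusted p = 0.00609 and 0.00182; r = 0.51 without the 2 farthest pups), and the 1 pair below 0 was Gstm2 with Gstm5 (r = -0.11, permutation p = 0.594). All values of 1 pup come from 1 array, and the share of the correlation that the array contributes was not tested. Median centring in place of loess turned the sign for Gstm1, Gstm2, Gstm3 and Gstm5 with Gstm7 and for Gstm2 with Gstm5.

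**Figure D4:**
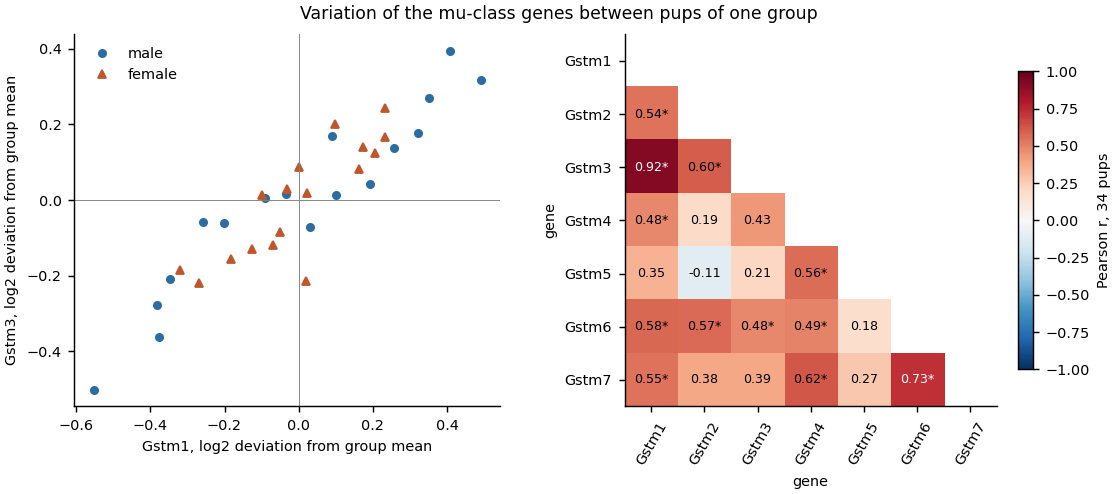
Left, deviation of Gstm1 (horizontal axis) and Gstm3 (vertical axis) from the mean of the pup's own sex and treatment, in log2 units, with 1 point per pup (17 male circles, 17 female triangles). Right, Pearson's r of these deviations for each of the 21 pairs of members over 34 pups, with an asterisk where the adjusted permutation p is below 0.05; Gstm1 with Gstm3 has the highest r, 0.92.

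The genes outside the family whose levels were most like those of Gstm1, by Pearson's r over the 34 pups after subtracting the control mean of each sex, were Pir (r = 0.93), Srxn1 (r = 0.92), Mgst1 (r = 0.92), Creg1 (r = 0.92) and Nqo1 (r = 0.89). For Gstm3 the same 5 genes led in the same order, with r between 0.91 and 0.95. Over all 22190 probes the median r was 0.01 with Gstm1 and 0.00 with Gstm3. Pir encodes pirin, an iron-binding nuclear protein, Srxn1 the sulfiredoxin that repairs oxidized peroxiredoxins, Mgst1 a microsomal glutathione S-transferase, Creg1 a secreted glycoprotein, and Nqo1 a quinone reductase. The points share arrays and treatment groups, so that these correlations are a description. Pir was 0.97 higher in hypo than in control males and 0.96 in females, and in hypo+ pups 0.82 and 0.87. Nqo1 was higher by 0.99 and 0.72 in hypo and by 0.53 and 0.62 in hypo+ pups. Mgst1 differed by 0.34 and 0.37 in hypo pups by this probe. The probe that stands for Mgst1 in the lists below gave 0.33 and 0.10. Beside Gstm1, whose hypo+ and hypo levels differed by 0.03 and -0.08, Pir differed by -0.15 and -0.09 and Srxn1 by -0.19 and -0.20. When the treatments were removed by taking deviations from group means, r with Gstm1 was 0.43 for Nqo1, 0.47 for Pir, 0.59 for Srxn1, 0.67 for Mgst1 and 0.68 for Creg1.

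**Figure D5:**
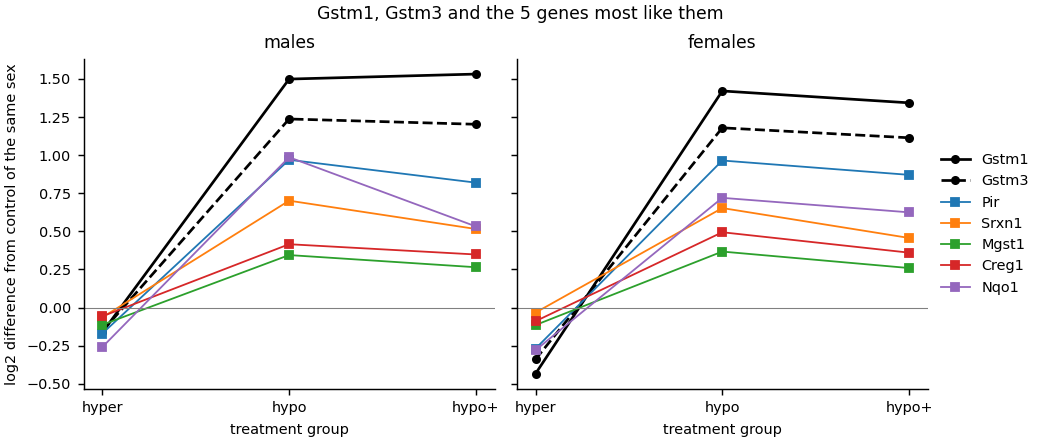
Log2 difference from control pups of the same sex (vertical axis) in hyper, hypo and hypo+ pups (horizontal axis) for Gstm1, Gstm3 and the 5 genes with the highest r to both, males left and females right. Each point is the difference of 2 group means; all 7 genes lie below 0 in hyper and above 0 in hypo and hypo+ pups, with Gstm1 and Gstm3 highest in hypo and hypo+.

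The other genes of glutathione conjugation were counted from lists, each gene by 1 probe. For comparisons that include goitrogen-treated pups, the share of all probes with an unadjusted p below 0.05 was not counted. Counts of list genes with such a p are therefore only descriptions there, in this list and those below. Of 15 measured genes of other glutathione transferase classes, 1 was called higher in hypo pups of each sex and none lower. It was Gstt2, a theta-class enzyme, in males, with 0.61 (SE 0.10, adjusted p = 0.0191; 0.51 in females, adjusted p = 0.26), and Gstp1, the pi-class enzyme, in females, with 0.61 (SE 0.10, adjusted p = 0.0174; 0.68 in males, adjusted p = 0.0716). In hypo+ against control no gene of the list passed, and 5 in males and 4 in females had an unadjusted p below 0.05. There Gstt2 differed by 0.58 (adjusted p = 0.0509) and 0.53 (adjusted p = 0.508) in males and females, and Gstp1 by 0.64 (adjusted p = 0.167) and 0.54 (adjusted p = 0.268). In hypo pups the 15 genes had a median of 0.17 (males) and 0.24 (females), with 14 and 13 above 0, against 0.54 and 0.42 for the mu class. Of the 15 genes, none was called in hyper pups, and 0 had an unadjusted p below 0.05.

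Among 14 genes of glutathione synthesis and redox cycling, Ggct fell in hypo pups and no gene was called higher. Ggct, which encodes the gamma-glutamyl cyclotransferase of glutathione breakdown, fell by 0.71 in hypo males (SE 0.12, adjusted p = 0.0381) and by 0.81 in hypo females (SE 0.12, adjusted p = 0.00921). Its hypo+ level differed from control by -0.45 and -0.28, and neither passed. The median of this list in hypo pups was 0.04 (males) and 0.07 (females), beside 0.00 over all probes. None of 11 genes of conjugate export and mercapturate formation was called in any treatment comparison, and 0 to 3 of them in each had an unadjusted p below 0.05. The genes with the smallest p in that list were Nat8, an acetyltransferase of mercapturate synthesis (0.30, adjusted p = 0.106 in hyper females), and Abcc3, a conjugate exporter (0.69 in hypo males, adjusted p = 0.439). Mean log2 ratios of Abcc3 in males were 1.06 in control, 1.75 in hypo and 1.81 in hypo+ pups. In females they were 1.42, 1.93 and 2.05.

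Among 15 other genes known as NRF2 targets, 3 were called higher in hypo males and 2 in hypo females, and none lower. The median difference of the list in hypo pups was 0.22 (males) and 0.31 (females), with 12 and 11 of 15 above 0. Srxn1 rose in both sexes, by 0.70 (males, SE 0.12, adjusted p = 0.0351) and 0.65 (females, SE 0.07, adjusted p = 0.00048). Nqo1 (0.99, SE 0.13, adjusted p = 0.0101) and Aox1, an aldehyde oxidase (1.05, SE 0.16, adjusted p = 0.0169), rose in males, and Ephx1, the microsomal epoxide hydrolase (1.29, SE 0.22, adjusted p = 0.0231), rose in females. In the other sex these differences were 0.72 for Nqo1 (adjusted p = 0.136), 1.25 for Aox1 (adjusted p = 0.0559) and 1.22 for Ephx1 (adjusted p = 0.434). None of these genes was called in hypo+ against control. There 8 in males and 10 in females had an unadjusted p below 0.05, and the share of all probes with one was not counted. The median there was 0.21 (males) and 0.20 (females), with 13 of 15 above 0 in each sex. Osgin1, an oxidative stress-induced growth inhibitor, was the only gene of this list called between hypo+ and hypo, and it was higher in hypo+ pups by 0.99 (SE 0.17, adjusted p = 0.0135) in males and 1.36 (SE 0.22, adjusted p = 0.00553) in females. In that comparison Gstm1 and Gstm3 differed by -0.08 to 0.03 in the fit without slide as a block. Unlike the genes called higher in hypo pups, Osgin1 had a lower mean in hypo than in control pups. Its mean log2 ratio was 3.10 beside 3.46 in males and 3.02 beside 3.72 in females, and in hyper pups it was 4.09 and 4.15.

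None of 10 targets of CAR and PXR was called in any treatment comparison, and 0 to 3 of them in each had an unadjusted p below 0.05. In hypo against control, 1 of them had an unadjusted p below 0.05 in each sex, and their median was 0.10 (males) and -0.03 (females). Cyp2c55 had the smallest p of the list, with 0.53 (SE 0.13, adjusted p = 0.229) in hypo males and 0.51 (SE 0.14, adjusted p = 0.338) in hypo females. Por, the cytochrome P450 reductase, differed by -0.20 and -0.08. Of 5 measured thyroid hormone responsive genes, Dio1 was called lower in hypo pups and Dio1 and Me1 higher in hypo+ than in hypo pups, in each sex. Me1, the malic enzyme, rose there by 0.66 (SE 0.12, adjusted p = 0.021) in males and 0.95 (SE 0.11, adjusted p = 0.00044) in females. In hyper pups no gene of these 6 lists was called, and 0 to 3 genes of each had an unadjusted p below 0.05.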

How the data were processed

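RNA of 34 livers was hybridized against a universal reference RNA, with Cy5 for the pup and Cy3 for the reference on every array and no dye swap. The deposited scanner files hold the median signal intensity of each spot, without background subtraction or normalization. They also hold a log10 ratio that the scanner software, Feature Extraction 10.1.1.1, computed from background-subtracted and dye-normalized signals. The authors also deposited a log2 ratio per spot. Its scale and direction were found by comparison with the scanner values (r of at least 0.992 and slopes of 0.986 to 0.992 on each array), and its medians per array lay between -0.0496 and -0.0176. Whether these values were centred in another way is unknown.

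The ratio was computed from the median intensities. Control spots and the 77 to 212 spots of each array with an outlier mark of the software were removed, loess was run within each array in limma 3.58.1 (R 4.3.3), and spots of a probe were averaged. RefSeq accessions gave a symbol for 16806 of 33541 systematic names, those of the 8 member probes included. The probe of a gene is the one with a RefSeq mRNA accession and the highest mean Cy5 signal. Each sex was fitted separately with 4 groups, with Benjamini-Hochberg adjustment across the 41174 probes and a threshold of 0.05. Permutation tests used NumPy and SciPy, and the functions were tested on simulated data. Arrays give no counts, and the number of pups limits the precision. Median signals per array were 146 to 199 in Cy5 and 64 to 100 in Cy3, and 60.8% to 79.4% of spots were well above background. The 34 arrays lay on 11 slides scanned on 6 days.

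Samples were grouped by their deposited titles. The start of the goitrogens is PND 13 in the series description, whereas the methods give an earlier day. The members and the gene lists were chosen with earlier results of these data known, so that none of them is independent support. Genes named in the text are the members, of each list the called genes (up to 6, by the mean of the male and female adjusted p) or else the 2 with the smallest p, the 5 genes most like Gstm1 and Gstm3, and Dio1 and Thrsp. Marker lists for hepatocytes, cholangiocytes, Kupffer, endothelial, stellate, erythroid and pancreatic acinar cells were read as mean log2 ratios. Alternatives were normexp background correction (offset 50), median centring, the authors' log2 values, the log10 ratio turned to log2, the Cy5 channel alone, a filter on dim probes, the slide or scan day as a block, only the compared groups, both sexes in 1 fit, the mean over the probes of a gene, the first digits of the animal number as a block, and leaving out each array in turn. The scan day, and correlations over means of pups with the same first digits of the animal number, were chosen after the data were seen.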

Additional observations from a re-analysis of the deposited data

Results flagged for a closer look

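In 56 combinations of a member probe and a group of 4 or 5 pups, a single pup lay far from the rest of its group in 5, by the gap to the nearest pup relative to the whole range (Dixon's test at the 95% level). Chance gives about 1 in 20 such groups. Hypo male 723 had the lowest Gstm2, 0.33, while the other hypo males had 0.90 to 0.98. Hypo+ male 454 had the highest Gstm2, 0.80, against 0.24 to 0.33 in the others. Hyper male 784 had the highest Gstm4, 1.81, against 1.37 to 1.48. Hypo female 893 had the lowest Gstm5, -0.52, against -0.32 to -0.30. Control female 831 had the highest Gstm7, 2.30, against 1.61 to 1.69. No pup of the Gstm1 or Gstm3 probes stood apart in this way. The group of 3 hypo+ females was not tested.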

How the results depend on the processing

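The counts of members called in hyper against control, hypo+ against hypo, between the sexes, and for sex by treatment were 0 in every setting run. The paralog tests of the hyper response also gave 0, which says nothing of stability, since a single test at the smallest exact p has an adjusted p of 0.19. The 2 members in hypo males became 0 after median centring and when only the compared groups were fitted. The 2 members in hypo+ males became 0 after median centring, with slide or scan day as a fixed block, and with the scanner log10 ratio. The 2 in hypo+ females became 0 with the Cy5 channel alone, median centring, only the compared groups, and slide as a fixed block. Leaving out 1 array gave 0 to 2 members in hypo males (0 without hypo male 311) and 0 to 2 in hypo+ males. There it was 0 without control male 881, 832, 522 or 391, or without hypo+ male 454, 761 or 363. The cause of these changes was not tested. The adjusted p of Gstm1 in hyper females ranged from 0.0872 with slide as a fixed block to 1.00 with the Cy5 channel alone.

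Genes of the pathway lists called in any treatment comparison numbered 7 in females and 8 in males. With the Cy5 channel alone they were 3 and 5, with median centring 2 and 1, with only the compared groups 3 and 1, and with the log10 ratio 4 and 3. In females they were 11 with both sexes in 1 fit and 13 with slide as a random block. In males they were 4 with normexp, 4 with scan day as a block and 5 with slide as a fixed block, and leaving out 1 array gave 2 to 9 (2 without hypo male 311).

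The 12 correlated pairs became 4 with the log10 ratio, 4 in males alone and 2 in females alone. Over the means of pups with the same first digits, an alternative chosen after the data were seen, they were 8. Whether the dam or the number of pups accounts for these changes was not tested. Within-group r changed sign after median centring for Gstm1 (-0.1406), Gstm2 (-0.0809), Gstm3 (-0.1744) and Gstm5 (-0.3758) with Gstm7 and for Gstm2 with Gstm5 (0.6010). It also changed in females alone for Gstm2 (0.1979) and Gstm3 (-0.0076) with Gstm5, with the log10 ratio for Gstm4 (-0.0236) and Gstm5 (-0.0615) with Gstm6, and with slide means for Gstm5 with Gstm7 (-0.1695).

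Hyper differences near 0 changed sign in several settings. In females they were 0.029 for Gstm4 and 0.0625 for Gstm6 with median centring, 0.0974 for Gstm6 and 0.0496 for Gstm7 with normexp, and -0.0078 for Gstm5 with the log10 ratio. In males Gstm5 was 0.0294 with scan day and 0.0286 with slide as a fixed block, 0.0201 with the log10 ratio, 0.007 with slide as a random block and 0.009 with the authors' values. Gstm6 in males was -0.2106 with normexp, -0.037 with the Cy5 channel, -0.0311 with slide and -0.0293 with scan day as a fixed block. Leaving out 1 array gave, in females and males, -0.0341 to 0.0615 and -0.0401 to 0.0333 for Gstm5, -0.1383 to 0.0839 and -0.0845 to 0.1582 for Gstm6, and -0.1872 to 0.0520 and -0.1166 to 0.0733 for Gstm7. In males the response minus that of Gstm1 was -0.0173 for Gstm3 with the Cy5 channel and 0.0435 for Gstm4 with median centring. Leaving out 1 array gave -0.1404 to 0.0680 for Gstm2, -0.0423 to 0.0539 for Gstm3 and -0.1231 to 0.0385 for Gstm4. No paired analysis was possible because the treatments compared share no animal number. Slide was used as a block between treatments, and the first digits of the animal number as a block between the sexes, where 0 members were called.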
